A study of Mus musculus with 4 samples.

Results

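The type I interferon-stimulated antiviral genes (called antiviral genes below) were followed in the livers of IlrunKO and wild-type (WT) mice. They are 33 named genes, found on the arrays by the gene name of each probe or by the current symbol of its accession. No measured value entered that search, but genes and lists were chosen with earlier results of these data known. All 33 had a probe, 44 of the 39429 probes on the arrays, among 31709 genes in all. RNA of 4 IlrunKO and 4 WT livers was hybridised to 4 two-colour Agilent arrays, with a liver of each genotype on every array. IlrunKO mice lack Ilrun in every tissue and WT mice carry the intact gene; all were C57BL/6 males on chow, and livers were taken after a fast of 4 h. No source used here gives the age of the mice, the deleted part of Ilrun or whether a sample is 1 mouse or a pool, and p-values measure the spread between these samples. Arrays 1 and 2 had IlrunKO RNA in the red channel (Cy5), and arrays 3 and 4 had it in the green channel (Cy3).

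Between 60.0% and 67.3% of probes were well above background in each channel, and all arrays shared 1 slide and 1 scan. Ratios below are log2 of IlrunKO over WT, so 0 is no difference, and levels are log2 normalised intensity of 1 probe, which can be set against other livers but not against other genes. The words rose and fell are kept for genes with an adjusted p under 0.05 in limma (Benjamini-Hochberg over all genes kept, two-sided). The dye term of that fit cannot be told apart from a difference between arrays 1 and 2 and arrays 3 and 4. As a check of the labels, Ilrun stood at -4.12, -4.11, -4.04 and -4.56 on arrays 1 to 4, with a mean of -4.21 ± 0.24 (SD, n = 4).

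Type I interferons bind a receptor made of Ifnar1 and Ifnar2, whose kinases Jak1 and Tyk2 activate Stat2. A complex that holds Stat2 and Irf9 enters the nucleus and binds interferon-stimulated response elements in the promoters of antiviral genes. In liver, hepatocytes and the resident macrophages (Kupffer cells) both respond, and many of these genes are also transcribed at a low level with no infection. The human ILRUN protein has been described as an inhibitor of IRF3 and of interferon production, through the coactivators EP300 and CREBBP.

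The response element was looked for in the promoters of these genes, and promoter windows holding a match are shown for the genes treated at length. RefSeq promoter windows (GRCm38.p6, from 250 bases before to 50 bases after the start of the gene) were at hand for 22 of the 33 genes. The motif GAAA, any 2 bases and GAAA again was searched on both strands, overlapping matches included, and occurred in 12 of the 22 genes (54.5%), against 1079 of 27025 genes in the whole table (3.99%). Among the genes given below with all their values, 5 had a match before the start. The sequences run from left to right in the direction of transcription, with every base of a match in capitals.
Isg15: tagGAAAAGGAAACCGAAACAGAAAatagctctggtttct
Bst2: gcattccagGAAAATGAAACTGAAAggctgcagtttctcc
Ifit3: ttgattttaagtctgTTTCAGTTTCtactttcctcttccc
Oas3: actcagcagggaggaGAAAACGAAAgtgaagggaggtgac
Stat2: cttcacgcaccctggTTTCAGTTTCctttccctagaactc
The Isg15 window (chr4:156200860-156200899, minus strand) held 3 overlapping matches, and the Bst2 window (chr8:71537572-71537611, minus strand) held 2. The Ifit3 window (chr19:34583392-34583431, plus strand) and the Stat2 window (chr10:128270261-128270300, plus strand) carry the element on the opposite strand, so it reads TTTC, any 2 bases and TTTC here. The Oas3 window (chr5:120777710-120777749, minus strand) held a single match, 75 bases before the start. The windows of Oasl1, Cmpk2, Irf7, Irf9, Ifit2 and Isg20 did not hold these letters, and a match or its lack is a description of the window alone. No window of Usp18, Mx1 or Mx2 was searched.

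Most antiviral genes lay slightly above 0 in IlrunKO liver, and none passed the test. Of the 33 genes, 32 were well above background, each in all 8 channels; Oas1g was not well above background in any. The mean ratio was above 0 in 28 of the 32, against 49.3% of all genes, and above 0.2 in 11, against 9.02%. In limma 0 of 32 passed in either direction, against a background of 1.37% of the 19675 genes tested (0.717% higher and 0.656% lower). Without adjustment 6 of 32 had a p under 0.05, which is 18.8% beside 20.5% of all genes. A separate-channel limma model called 3, Cmpk2, Oasl1 and Usp18, where it called 12.7% of all genes. The median of the 32 means was 0.16, against -0.0017 for all genes.

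The ratios depended on the array. The median over the 32 genes was -0.19, 0.38, 0.23 and 0.20 on arrays 1 to 4, while that of all genes stayed between -0.02 and 0.01. Array 1 therefore went the opposite way to the other 3. On array 1 only 6 of 32 antiviral genes were above 0 (51.6% of all genes), and on arrays 2, 3 and 4 the counts were 28, 27 and 24 (52.9%, 46.1% and 48.7% of all genes). Exactly 16 genes were below 0 on array 1 and above 0 on the other 3, a sign pattern that 6.05% of all genes showed. Array 1 gave the lowest of the 4 ratios in 27 of 32 (22.9% of all genes). Only 4 were above 0 on all 4 arrays (11.7% of all genes), namely Oasl1, Cmpk2, Ifit3 and Ddx58, and only Isg20 was below 0 on all 4 (11.5% of all genes).

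The antiviral genes also spread more than other genes. Their interquartile range was 0.25, 0.43, 0.46 and 0.36 on arrays 1 to 4, against 0.24, 0.27, 0.26 and 0.27 for all genes. The SD of a gene over the 4 arrays had a median of 0.38, against 0.15 for all genes, and the median standard error in the fit was 0.12, against 0.06. Spread of this size was not particular to them. Among macrophage markers the SD was 0.43 for Clec4f, 0.48 for Csf1r and 0.55 for Vsig4, but 0.06 for Cd68 and 0.10 for Cd163.

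**Figure D1:**
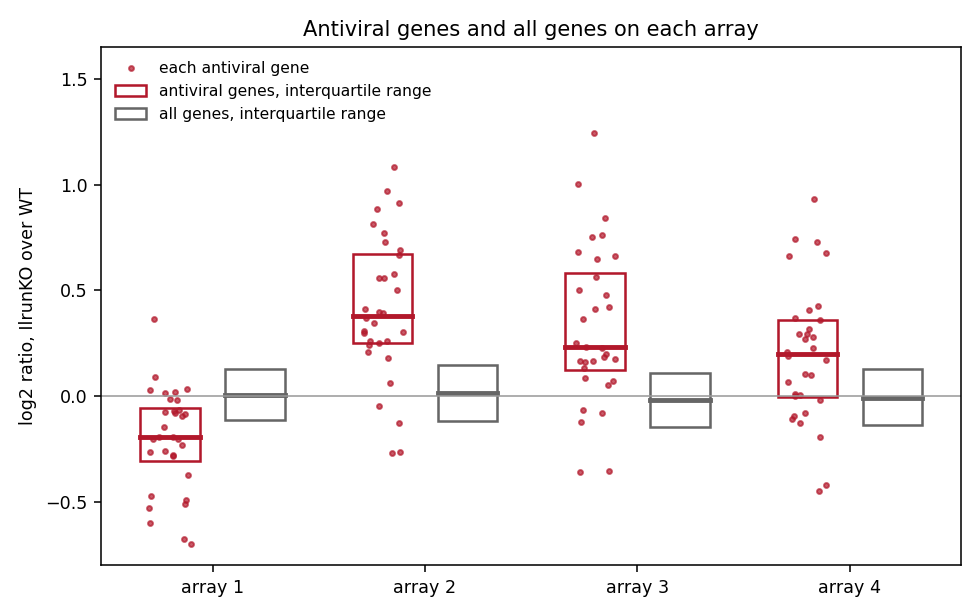
Log2 ratio of IlrunKO over WT (vertical axis) on each of the 4 arrays (horizontal axis) for the 32 antiviral genes kept (points), with the interquartile range and median of those genes (red boxes) and of all 19675 genes (grey boxes). The antiviral genes have a median of -0.19 on array 1 and of 0.38, 0.23 and 0.20 on arrays 2 to 4, while the grey medians lie close to 0.

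Sensors of foreign nucleic acid come first in the pathway. Ddx58 encodes RIG-I, a cytosolic sensor of viral RNA. Its probe (chr4:40151893-40151952 of mouse genome mm9) had ratios of 0.02, 0.30, 0.37 and 0.01 on arrays 1 to 4. Levels were 10.33, 10.37, 10.41 and 10.09 in IlrunKO livers 1 to 4, against 10.31, 10.07, 10.04 and 10.09 in WT livers 1 to 4. The groups overlapped, since WT liver 1 lay just below 3 of the IlrunKO livers and IlrunKO liver 4 lay beside the other WT livers. The mean was 0.17 ± 0.19 (SD, n = 4, adjusted p = 0.34), and a second Ddx58 probe stood at -0.01, so the sign rests on the probe. Zbp1, a sensor of Z-form nucleic acid that can start necroptosis, averaged 0.30, with -0.37 on array 1 and 0.37 to 0.66 on the other 3. Ifih1, the sensor MDA5 of long double-stranded RNA, averaged 0.15 and rested on array 2 at 0.73. Dhx58, a relative that tunes both RNA sensors, averaged 0.11.

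The transcription factors Stat2 and Irf9 had small ratios, and Irf7 had larger ones that differed by array. Irf7 is the factor whose own induction amplifies interferon production. Its probe (chr7:148450664-148451014, mm9) had ratios of -0.49, 0.50, 0.76 and 0.32 on arrays 1 to 4. Levels were 8.46, 8.84, 9.11 and 8.83 in IlrunKO livers 1 to 4, against 8.96, 8.34, 8.35 and 8.51 in WT livers 1 to 4. In 3 pairs the IlrunKO liver was higher, and in pair 1 the order was turned, with IlrunKO liver 1 below WT liver 4 as well. The mean was 0.27 ± 0.54 (SD, n = 4, adjusted p = 0.47).

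Stat2 and Irf9 are parts of the complex that binds the response elements. The Stat2 probe (chr10:127729834-127729893, mm9) had ratios of -0.09, 0.25, 0.05 and 0.19, with levels of 10.80, 10.92, 10.81 and 11.05 in IlrunKO livers and 10.89, 10.67, 10.76 and 10.86 in WT livers. Its mean was 0.10 ± 0.15 (SD, n = 4, adjusted p = 0.506). The groups overlapped over most of their range. The Irf9 probe (chr14:56228806-56228865, mm9) had ratios of -0.20, 0.26, 0.23 and -0.02, with levels of 10.90, 11.14, 11.12 and 10.82 in IlrunKO livers and 11.10, 10.88, 10.90 and 10.84 in WT livers. Its mean was 0.07 ± 0.22 (SD, n = 4, adjusted p = 0.753), and WT liver 1 again stood above the other 3 WT livers.

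Usp18 and Isg15 were higher in IlrunKO liver in pairs 2 to 4 and lower in pair 1. Isg15 is a ubiquitin-like protein that is attached to other proteins, Usp18 removes it and also dampens signalling at the receptor subunit Ifnar2, and Herc6 is the enzyme that attaches it in mice. The Usp18 probe (chr6:121220874-121220933, mm9) had ratios of -0.19, 0.97, 1.00 and 0.75 on arrays 1 to 4. Levels were 10.13, 10.28, 10.38 and 10.25 in IlrunKO livers 1 to 4, against 10.32, 9.31, 9.38 and 9.51 in WT livers 1 to 4. IlrunKO livers lay within a narrow range, and 3 WT livers lay well below them while WT liver 1 lay among them. The SD of the level was 0.11 in IlrunKO livers and 0.47 in WT livers. The mean ratio was 0.63 ± 0.56 (SD, n = 4), a 1.55-fold difference with an adjusted p of 0.18 and an unadjusted p of 0.025.

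The Isg15 probe (chr4:155573649-155573708, mm9) had ratios of -0.47, 0.41, 0.84 and 0.68 on arrays 1 to 4. Levels were 10.94, 11.27, 11.57 and 11.31 in IlrunKO livers, against 11.42, 10.86, 10.72 and 10.63 in WT livers. As with Usp18, WT liver 1 was far above the other WT livers, and IlrunKO liver 1 was the lowest of its group. The mean was 0.37 ± 0.59 (SD, n = 4, adjusted p = 0.271), and a second probe averaged 0.21. The brighter probe shares a run of at least 20 bases with a probe named for Gm9706, so the pair may not be told apart. Herc6 (named Herc5 in the files) averaged -0.07, with a second probe at -0.12.

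The OAS family makes short adenylate chains that switch on the RNA-degrading enzyme RNase L, and held the gene closest to the threshold. Oasl1, an OAS-like protein with no such activity that in mice blocks translation of Irf7 mRNA, had ratios of 0.37, 0.81, 1.24 and 0.73 on arrays 1 to 4 (probe at chr5:115387861-115387920, mm9). Levels were 11.19, 11.43, 11.45 and 11.08 in IlrunKO livers 1 to 4, against 10.83, 10.62, 10.21 and 10.35 in WT livers 1 to 4. All 4 IlrunKO livers lay above all 4 WT livers, as in 4.73% of all genes. The mean was 0.79 ± 0.36 (SD, n = 4), a 1.73-fold difference with an adjusted p of 0.0603 and an unadjusted p of 0.00132. Oasl1 passed in 6 of 16 alternative settings, with ratios between 0.66 and 0.92 over all of them. The 6 include a looser threshold of 0.10 on the main fit, which an adjusted p of 0.0603 meets by definition. They also include the fit without array 1. Counts out of 15 settings, given below for other genes, leave the looser threshold out.

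Oas3 (chr5:121203598-121203657, mm9) had ratios of -0.01, 0.06, 0.16 and 0.30, with levels of 6.43, 6.45, 6.50 and 6.69 in IlrunKO livers and 6.44, 6.39, 6.34 and 6.40 in WT livers. The difference came mainly from liver pairs 3 and 4, and the mean was 0.13 ± 0.13 (SD, n = 4, adjusted p = 0.259). Oas1a averaged 0.36 but ran from -0.53 on array 1 to 0.77 on array 2. WT liver 1 had the highest Oas1a level of all 8 livers (10.61), against 9.40 to 9.73 in the other WT livers and 10.08 to 10.36 in IlrunKO livers. Oas2 averaged 0.20, with -0.70 on array 1, the lowest ratio of any antiviral gene there. Oasl2 averaged 0.25 and rested on array 2 at 0.88. Oas1b, whose allele in common laboratory strains encodes a truncated protein, averaged 0.02. Its probe shares a run of at least 20 bases with a probe named for another transcript.

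**Figure D2:**
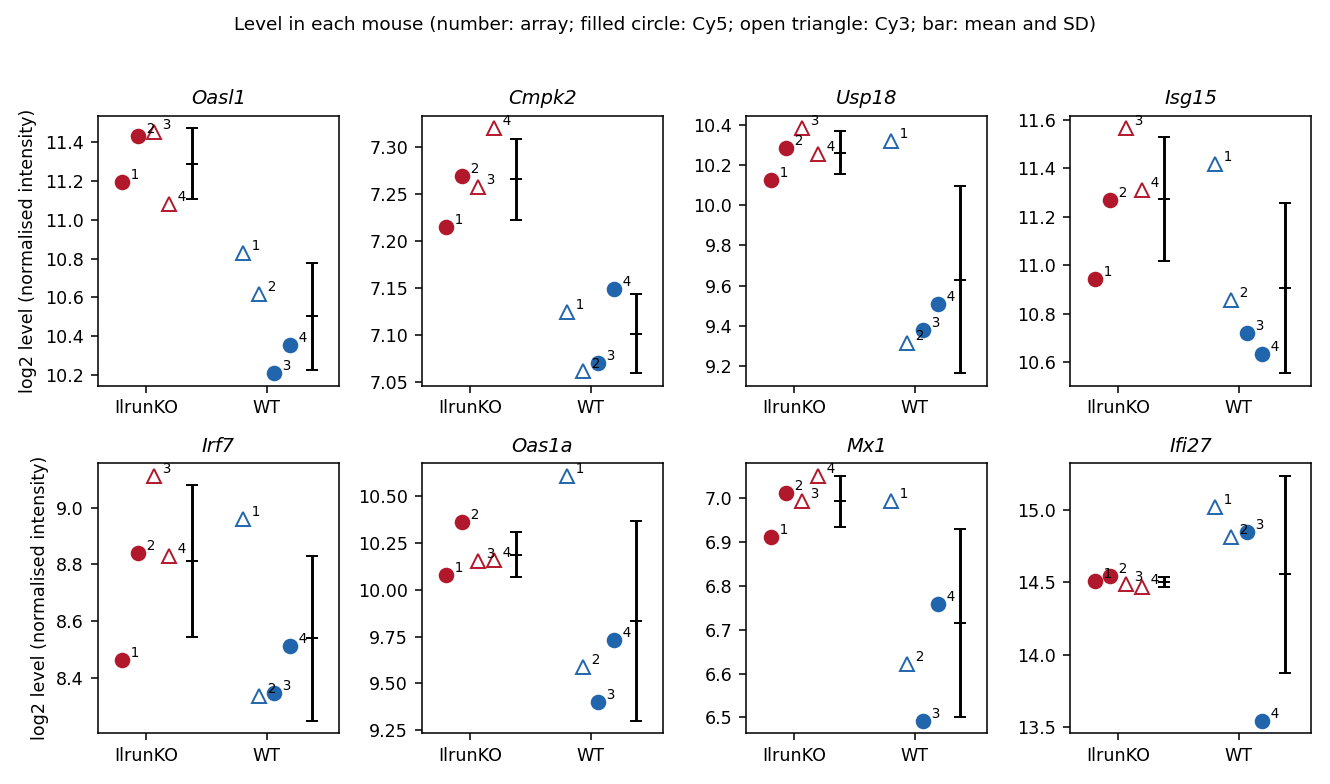
Log2 level (vertical axes, normalised intensity, 1 scale per gene) of 8 antiviral genes in each of 4 IlrunKO livers (red) and 4 WT livers (blue), numbered by array, with filled circles for Cy5, open triangles for Cy3, and mean and SD in black. Oasl1 and Cmpk2 do not overlap between genotypes, Usp18, Isg15, Oas1a and Mx1 overlap through WT liver 1, Irf7 through WT liver 1 and IlrunKO liver 1, and Ifi27 is low in WT liver 4.

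Proteins of the IFIT family bind viral RNA and hinder its translation, and their ratios were small in the main fit. Ifit2 (chr19:34650244-34650303, mm9) had ratios of -0.07, 0.24, 0.13 and 0.41, with levels of 6.71, 6.90, 6.90 and 7.05 in IlrunKO livers and 6.78, 6.66, 6.77 and 6.65 in WT livers. Only IlrunKO liver 1 lay within the WT range, and the mean was 0.18 ± 0.20 (SD, n = 4, adjusted p = 0.302). The Ifit2 probe was dim, and its ratio was 0.29 without background subtraction and 0.30 with an offset of 0. Ifit3, whose promoter window is shown above (probe at chr19:34663105-34663164, mm9), had ratios of 0.02, 0.58, 0.23 and 0.07. Its levels were 9.43, 9.62, 9.61 and 9.36 in IlrunKO livers, against 9.41, 9.05, 9.38 and 9.29 in WT livers. The Ifit3 ratio rested on the low WT liver 2, and the mean was 0.22 ± 0.25 (SD, n = 4, adjusted p = 0.316). Ifit1, which recognises RNA caps without host methylation, averaged 0.10.

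The MX proteins are large GTPases that trap viral nucleoproteins, and many inbred mouse strains carry a defective Mx1. The Mx1 probe (chr16:97668644-97668703, mm9) had ratios of -0.08, 0.39, 0.50 and 0.29, with levels of 6.91, 7.01, 6.99 and 7.05 in IlrunKO livers and 6.99, 6.62, 6.49 and 6.76 in WT livers. The mean was 0.28 ± 0.25 (SD, n = 4, adjusted p = 0.206, unadjusted p = 0.0341). Mx1 repeated the Usp18 arrangement, on a smaller scale in the main fit, with WT liver 1 among the IlrunKO livers. The Mx1 probe was dim, so the offset shrinks its ratio. The Mx1 ratio was 0.41 without background subtraction, 0.47 with an offset of 0 and 0.70 with Agilent processed signals. For Usp18 these settings gave 0.66, 0.66 and 0.68. With median centring Mx1 stood at 0.28 and Usp18 at 0.53. The Mx2 probe (chr16:97782327-97782386, mm9) had ratios of -0.02, 0.91, 0.42 and 0.21, with levels of 9.17, 9.73, 9.44 and 9.31 in IlrunKO livers and 9.18, 8.82, 9.02 and 9.10 in WT livers. Its mean was 0.38 ± 0.40 (SD, n = 4, adjusted p = 0.273). IlrunKO liver 2 was the highest and WT liver 2 the lowest of the 8 for Mx2.

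Among enzymes of nucleotides and RNA, Cmpk2 and Isg20 each kept 1 sign on all 4 arrays at their brighter probe, and the signs were opposite. Cmpk2, a mitochondrial nucleotide kinase, had ratios of 0.09, 0.21, 0.19 and 0.17 (probe at chr12:27162935-27162994, mm9). Levels were 7.21, 7.27, 7.26 and 7.32 in IlrunKO livers, against 7.12, 7.06, 7.07 and 7.15 in WT livers, without overlap. The mean was 0.16 ± 0.05 (SD, n = 4, adjusted p = 0.166, unadjusted p = 0.0205), and a second Cmpk2 probe averaged 0.03, with ratios of 0.09, -0.07, -0.01 and 0.13 that changed sign. Cmpk2 and Oasl1 were the only 2 of 32 genes without overlap in this direction, which is 6.25% beside 4.73% of all genes. In the other direction, 0 of 32 had all IlrunKO livers below all WT livers (4.21% of all genes).

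Isg20, an exonuclease that degrades viral RNA, had ratios of -0.23, -0.13, -0.08 and -0.11 (probe at chr7:86065136-86065195, mm9). Levels were 8.73, 8.51, 8.59 and 8.82 in IlrunKO livers, against 8.96, 8.64, 8.67 and 8.92 in WT livers. The ratio was below 0 within every pair although the groups overlapped, and the mean was -0.14 ± 0.07 (SD, n = 4, adjusted p = 0.213, unadjusted p = 0.0373). A second Isg20 probe averaged -0.10, with -0.22 and -0.23 on arrays 1 and 2 and 0.01 and 0.03 on arrays 3 and 4. Rsad2, which encodes viperin, the maker of a chain-terminating nucleotide, and which lies beside Cmpk2, averaged 0.04 and ran from -0.42 on array 4 to 0.35 on array 2.

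The membrane restriction factors split. Bst2, or tetherin, which holds budding virus at the cell surface, had ratios of -0.28, -0.27, 0.48 and 0.66 on arrays 1 to 4 (probe at chr8:74058603-74058662, mm9). Levels were 13.31, 13.13, 13.70 and 13.72 in IlrunKO livers, against 13.60, 13.39, 13.22 and 13.06 in WT livers. The sign followed the dye: whichever liver of a pair carried Cy3 was the higher one. The mean was 0.15 ± 0.49 (SD, n = 4, adjusted p = 0.222), and the unadjusted p of 0.0402 came from a fit that takes this difference between orientations out of the error. Ifitm3, which blocks viral entry at endosomes, averaged -0.25, the lowest mean of the 32, with 0.40 on array 2 and -0.60 to -0.35 on the other 3.

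Of the remaining interferon-induced genes, Ifi27l2a had the largest mean (0.44) and ranged from -0.26 on array 1 to 1.08 on array 2. Ifi27, a mitochondrial and nuclear envelope protein (named Ifi27l1 in the files), had ratios of -0.51, -0.27, -0.36 and 0.93 and a mean of -0.05. Its levels were 14.51, 14.55, 14.49 and 14.47 in IlrunKO livers, against 15.02, 14.81, 14.85 and 13.54 in WT livers. IlrunKO livers were almost alike for Ifi27, and WT liver 4 alone lay below them while the other 3 lay above. Xaf1, an apoptosis factor, averaged 0.18. Rtp4, a receptor chaperone, averaged 0.15 with -0.68 on array 1. Parp14, an ADP-ribosyl transferase, averaged 0.12, and Ifi44 averaged 0.11.

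**Figure D3:**
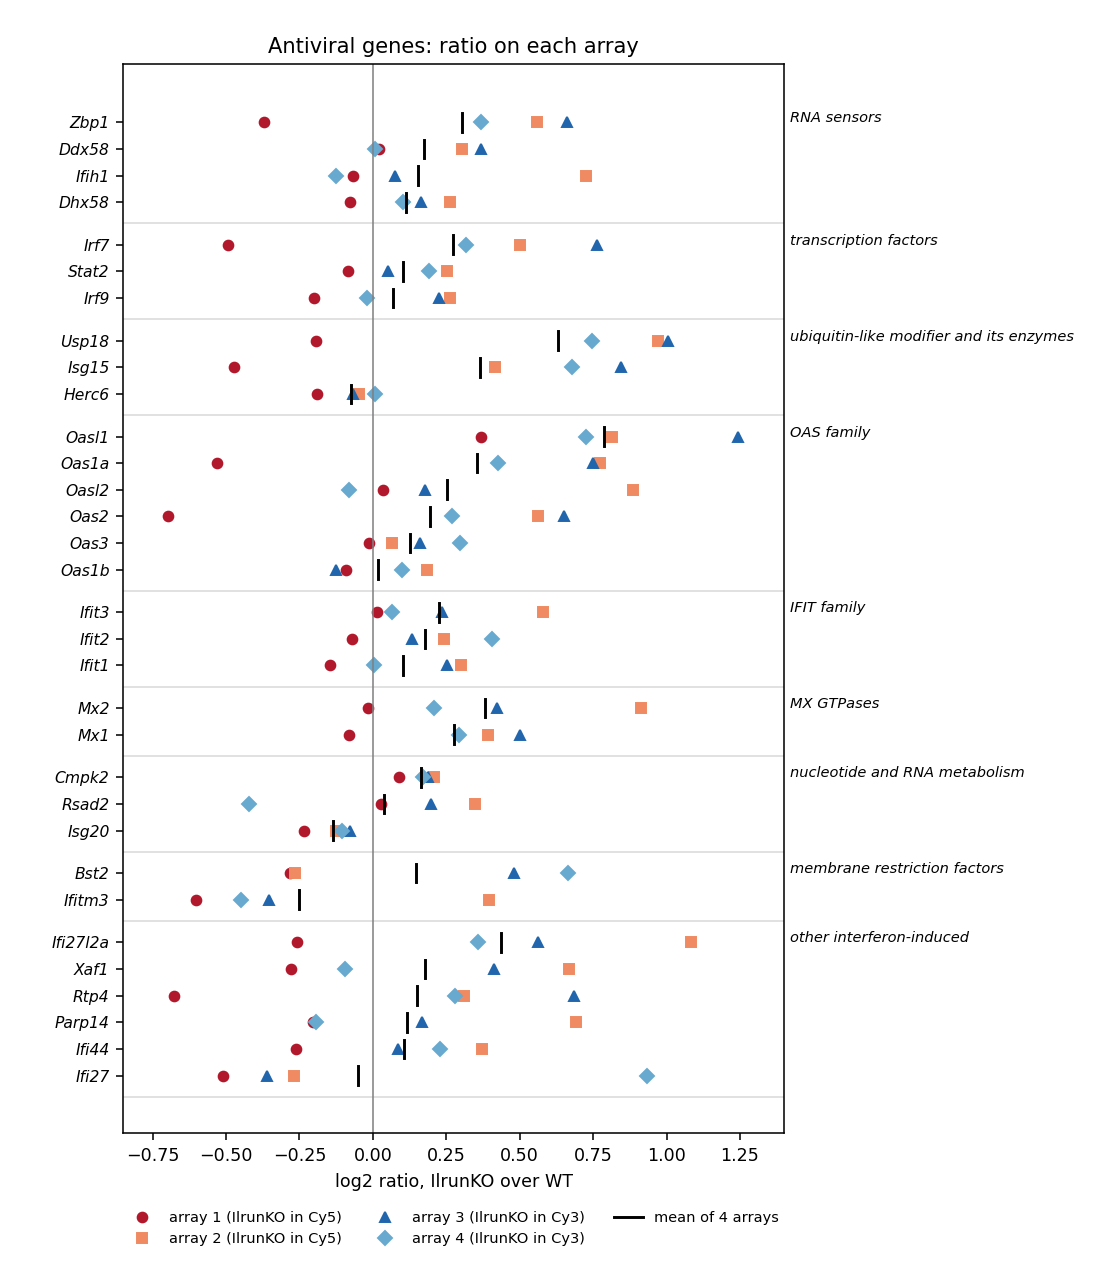
Log2 ratio of IlrunKO over WT (horizontal axis) on each of 4 arrays for the 32 antiviral genes kept, grouped by role and ordered by their mean (black bars). Array 1 (dark red circles) is the leftmost point for 27 of 32 genes, and Oasl1 has the highest mean at 0.79.

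Levels within a dye show which livers set these ratios. Livers 1 and 2 of each genotype carried the same dye, so they can be compared directly. IlrunKO liver 1 was below IlrunKO liver 2 in 30 of 32 antiviral genes (49.3% of all genes), and WT liver 1 was above WT liver 2 in 31 of 32 (50.6% of all genes). The livers of pairs 3 and 4 were closer: IlrunKO liver 3 was above IlrunKO liver 4 in 22 of 32 (47.9% of all genes), and WT liver 3 was below WT liver 4 in 18 of 32 (49.6% of all genes). WT liver 1 was the highest of the WT livers in 26 of 32 (26.3% of all genes), and IlrunKO liver 1 the lowest of the IlrunKO livers in 18 of 32 (24.7% of all genes).

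Set against the mean of the 4 livers with the same dye, the antiviral genes had median deviations in Cy5 of -0.02 and 0.19 in IlrunKO livers 1 and 2, against -0.10 and -0.09 in WT livers 3 and 4. In Cy3 they were 0.14 and 0.02 in IlrunKO livers 3 and 4, against 0.11 and -0.25 in WT livers 1 and 2. Both IlrunKO livers were above both WT livers in 15 of 32 genes in Cy5 (25.1% of all genes) and in 9 of 32 in Cy3 (22.7% of all genes). In Cy5 both IlrunKO medians lay above both WT medians, and in Cy3 WT liver 1 lay above IlrunKO liver 4. The SD over WT livers was larger than that over IlrunKO livers in 16 of 32 genes (48% of all genes).

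Leaving out array 1, the only array on which most antiviral genes were below 0, moved the calls. Then 6 of 32 passed, where 2.36% of all genes did: Usp18 at 0.92, Oasl1 at 0.90, Oas1a at 0.68, Mx2 at 0.61, Isg15 at 0.59 and Ifi27l2a at 0.77. The median of the 32 was 0.30 without array 1. That array was picked because these genes were low on it, so a gain of calls follows partly from the choice. The dye term stayed in, so array 2 alone had the weight of arrays 3 and 4 together. Array 2 held the highest of the 4 ratios in 17 of 32 genes (27.9% of all genes). Without array 2 the median was 0.03, 18 of 32 were above 0 and none passed. None passed without array 3 or without array 4 either, where Ilrun was the only gene of all that did.

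Upstream of the antiviral genes, only the receptor subunit passed. Of 17 interferon ligands 9 were kept, that is well above background in 3 or more channels of either genotype, and Ifnb1 was not among them. None of the 9 passed, with a median of 0.02, and the 7 that were well above background in all 8 channels had a median of -0.0012. Of the 3 with the smallest p, Ifna5 stood at -0.05 and Ifnab at 0.03. Ifng, the third, was well above background in 3 of 4 IlrunKO livers and 0 of 4 WT livers, so it was kept only through the IlrunKO channels and no fold is given. Of 16 receptor and JAK-STAT genes 15 were kept, 1 rose and none fell, with a median of 0.07. Ifnar2, the subunit of the type I receptor to which Usp18 binds, rose, with ratios of 0.52, 0.53, 0.27 and 0.28 on arrays 1 to 4. Levels of Ifnar2 were 12.95, 12.84, 12.79 and 12.85 in IlrunKO livers, against 12.43, 12.30, 12.52 and 12.58 in WT livers, without overlap. Its mean was 0.40 ± 0.15 (SD, n = 4, adjusted p = 0.0402), and it passed in 7 of 15 alternative settings, with ratios between 0.26 and 0.40. The ratios were larger on the arrays with IlrunKO in Cy5, and in limma without the dye term the adjusted p was 0.0832.

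Array 1 did not stand apart for Ifnar2, in contrast to the antiviral genes. Of 22 genes of the pathway that induces interferon 21 were kept and none passed, with a median of -0.01. Ikbke, a kinase of Irf3 and Irf7, stood at 0.39 (adjusted p = 0.0547), Irf1 at 0.48 (adjusted p = 0.0886) and the related kinase gene Tbk1 at -0.25 (adjusted p = 0.146). Ikbke levels were 7.74, 7.76, 7.76 and 7.74 in IlrunKO livers, against 7.39, 7.28, 7.46 and 7.31 in WT livers. Thus Ikbke, like Ifnar2, was higher in IlrunKO liver within every pair.

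Other interferon-induced genes likewise had their lowest median on array 1 and their highest on array 2. This order was not particular to them, since macrophage, neutrophil, T and NK cell, B cell and endothelial markers had it too. Of 52 further interferon-stimulated genes 47 were kept, none passed and 35 were above 0 (49.3% of all genes). Medians of the 47 were -0.12, 0.21, 0.14 and 0.12 on arrays 1 to 4. Those with the smallest p were the chemokine gene Cxcl10 (0.44, adjusted p = 0.0565), Oas1c (0.34, adjusted p = 0.0585) and Parp10 (0.55, adjusted p = 0.108). Cxcl10 had ratios of 0.72, 0.90, 0.16 and -0.04 on arrays 1 to 4, larger with IlrunKO in Cy5. As for Bst2, the fit takes this difference between orientations out of the error. Of 19 GTPases best known as targets of interferon gamma, none passed and 17 were above 0 (49.3% of all genes). Medians of these 19 were 0.02, 0.41, 0.18 and 0.25. Gbp4 stood at 0.53 (adjusted p = 0.0513), Ifi47 at 0.71 and Igtp at 0.45. Of 20 genes of antigen presentation 19 were kept, none passed and 18 were above 0 (49.3% of all genes). Medians of those kept were -0.02, 0.50, 0.30 and 0.23. The class II genes H2-Eb1 and H2-Aa stood at 0.81 and 0.76, and the class I gene H2-Q7 at -0.36.

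The medians of Kupffer cell and macrophage markers had a course over the arrays like that of the antiviral genes, but not every marker had it. All 19 were kept, none passed and 17 were above 0 (49.3% of all genes). Medians were -0.22, 0.83, 0.38 and 0.42 on arrays 1 to 4. Their summed linear intensity was 48659, 70969, 61441 and 62328 in IlrunKO livers 1 to 4, against 57447, 38420, 42135 and 42074 in WT livers 1 to 4. The groups overlapped through pair 1, as they did for Usp18 and Isg15. In Cy3 the median deviation of the macrophage markers was 0.09 in WT liver 1, below 0.17 and 0.14 in IlrunKO livers 3 and 4. For the antiviral genes WT liver 1 lay above IlrunKO liver 4. Clec4f, a Kupffer cell lectin, averaged 0.28, and the markers with the smallest p were Cd68 (0.21), Cd163 (-0.25) and Fcer1g (0.54). None of these last 3 changed sign on array 1: Cd68 had ratios of 0.16, 0.24, 0.28 and 0.17 on arrays 1 to 4. The Cd68 and Cd163 probes were dim, so the offset shrinks their ratios. Slc40a1 had ratios of 0.24, -0.08, -0.31 and 0.03, highest on array 1. The part of macrophage content in the antiviral ratios was not tested, and in whole liver fewer cells of a type and less RNA per cell cannot be told apart.

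**Figure D4:**
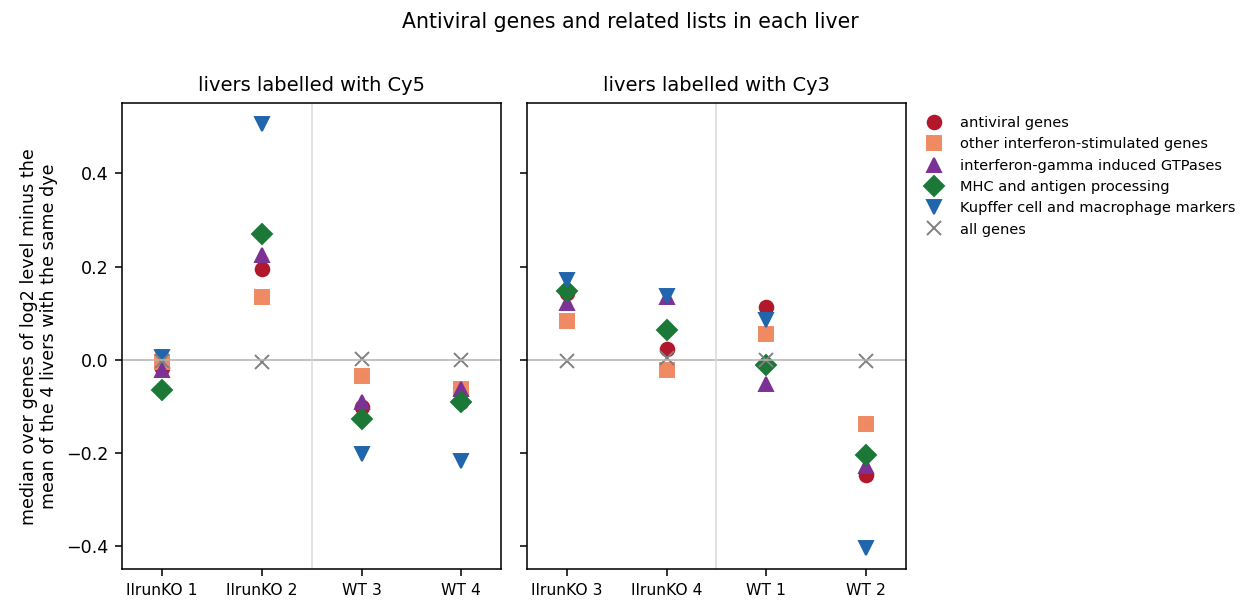
Median over the genes of a list of the log2 level minus the mean of the 4 livers with the same dye (vertical axis), for each liver (horizontal axis), with Cy5 livers left and Cy3 livers right. Antiviral genes (red circles) and Kupffer cell markers (blue triangles) are both high in IlrunKO liver 2 (0.19 and 0.51) and low in WT liver 2 (-0.25 and -0.40), while all genes (grey crosses) lie close to 0. The GTPases (0.22 and -0.23) and antigen presentation genes (0.27 and -0.20) are likewise high in IlrunKO liver 2 and low in WT liver 2.

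The other cell types were measured too. Hepatocyte markers, all 18 kept, had a median of -0.18 with none passing, and Trf, Alb and Apoa1 stood at -0.62, -0.36 and -0.37. Only 4 of the 18 were above 0 (49.3% of all genes). Hepatocyte medians on arrays 1 to 4 were -0.057, 0.19, -0.34 and -0.33. Alb ratios were 0.54, 0.21, -1.07 and -1.11 and Trf ratios -0.24, 0.35, -1.37 and -1.23, lower on the arrays with IlrunKO in Cy3. Alb levels were 16.74 to 17.63 in IlrunKO livers and 17.06 to 17.85 in WT livers. Endothelial markers had a median of -0.06, with 12 of 12 kept, none passing, and Oit3 at -0.26, Bmp2 at -0.31 and Gpr182 at -0.16. Only 1 of the 12 was above 0, and endothelial medians on arrays 1 to 4 were -0.18, 0.05, -0.15 and -0.11. Gpr182 ratios were -0.74, -0.68, 0.49 and 0.28, with a sign that followed the dye. Of 13 monocyte and dendritic cell markers 10 were kept, with a median of 0.05, none passing, and Zbtb46 at -0.13, Itgax at 0.17 and Ccr9 at -0.41.

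Of 10 neutrophil markers 7 were kept, with a median of 0.0021 and none passing, and Ly6g, Elane and S100a8 stood at 0.24, -0.06 and -0.16. Neutrophil medians on arrays 1 to 4 were -0.10, 0.27, 0.03 and 0.01, with the same signs as those of the antiviral genes. Of 16 T and NK cell markers 12 were kept, with a median of 0.06. T and NK cell medians on arrays 1 to 4 were -0.05, 0.15, 0.03 and -0.0041. Nkg7, a granule protein gene, fell there (-0.76, adjusted p = 0.0303) and passed in 11 of 15 alternative settings, while another Nkg7 probe stood at 0.15. Of 8 B cell markers 5 were kept, with a median of 0.03, none passing, and Ms4a1 at -0.14 and Cd79b at 0.10. B cell medians on arrays 1 to 4 were -0.05, 0.07, -0.04 and -0.04. Of 10 adipocyte markers 7 were kept, with a median of 0.69, and Cfd (3.82) and Adrb3 (1.04) rose, while Adipoq, Lep and Plin1 were not kept. Cfd passed in 7 of 15 alternative settings and Adrb3 in 12 of 15. The part of these cell types in the antiviral ratios was not tested.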

How the data were processed

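Per the file headers, the authors deposited raw intensity and processed intensity for each channel and their log10 ratio (Cy5 over Cy3), from Agilent Feature Extraction 10.10.1.1; their table of log2 ratios, deposited with the series, was made with limma per the submitters' processing notes. The log10 ratio, as deposited, gave the direction of that table (IlrunKO over WT); the table and the processed intensity served as alternatives. Here raw intensity was background-corrected by normexp (offset 50) and loess-normalised within arrays (limma 3.58.1 under R 4.3.3; files were read by data.table, version 1.17.8). Outlier spots were dropped and spots of a probe averaged. The brightest probe stood for a gene and was kept where 3 or more channels of either genotype were well above background (19675 genes). lmFit and eBayes fitted genotype and dye, with 2 residual degrees of freedom. The offset shrinks ratios of dim probes. Levels were equalised between arrays by their average intensity (Aquantile). No array value was imputed; 109 kept genes lacked an array. The fit was tested on simulated data. Genes and lists were chosen with earlier results of these data known. Every antiviral gene is named; the 12 with the smallest p and the regulators Irf7, Irf9, Stat2 and Usp18 are given for every liver, with Ilrun and, per list, genes passing or else the 3 with the smallest p. Alternatives changed 1 step at a time: dye term, background, normalisation, filter, probe choice, variance model, separate channels, threshold and each array left out. Some items are not reported here.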

Additional observations from a re-analysis of the deposited data

Results flagged for a closer look

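Values were screened for a sample far from the other 3 of its group (Dixon's test at the 95% level, the gap to the nearest other value divided by the range). Of 97 groups of 4 values tested, 3 were past this limit (3.09%), and chance alone gives about 1 in 20. The Ifi27 level in WT liver 4 was 13.54, far below the other WT livers. The Ifi27 ratio on array 4, which holds that liver, was 0.93 and lay far above the other 3 ratios. The Ddx58 level in WT liver 1 was 10.31, far above the other WT livers.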

How the results depend on the processing

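The number of arrays limits the precision. Main counts were 270 genes passing, 0 of 32 antiviral genes passing and 28 above 0. Genes passing numbered 442 without background subtraction, 80 with Agilent processed signals, 1 with median centring, 450 with the deposited ratios, 412 with a trended robust variance, 1118 at an adjusted p under 0.10 and 2486 in separate channels. Without each array in turn they ran from 1 to 464. Antiviral genes passing numbered 1 (Oasl1) without background subtraction, with the deposited ratios, with the trended robust variance and at the 0.10 threshold, and 3 in separate channels. Without each array they ran from 0 to 6. Those above 0 ran from 18 to 29, lowest without array 2, and their median from 0.03 to 0.30. Of 512 values of single antiviral genes, 481 kept direction and call, 13 gained a call and 18 turned sign. With median centring Irf9 was -0.047, Oas1b -0.12, Rsad2 -0.044 and Stat2 -0.012. With an array left out, Ifi27 was 0.27 without array 3 and 0.0095 without array 1 (range -0.37 to 0.27), Rsad2 was -0.12 without array 3 and -0.042 without array 2 (to 0.19), and Oas1b was -0.053 without array 2 and -0.040 without array 4 (to 0.085). The others turned without array 2 and were highest without array 1: Ifi44 (-0.053 and 0.26), Ifih1 (-0.046 and 0.35), Ifit1 (-0.0081 and 0.21), Irf9 (-0.049 and 0.18), Oas2 (-0.12 and 0.51), Parp14 (-0.11 and 0.34), Rtp4 (-0.097 and 0.40) and Xaf1 (-0.060 and 0.41). The cause was not tested. The dye term stayed in these fits, which gives the single array of an orientation the weight of a pair. Levels from Agilent processed signals, an alternative chosen after seeing the data, again gave 31 of 32 for WT liver 1 above WT liver 2 and 30 of 32 for IlrunKO liver 1 below IlrunKO liver 2. Each ratio is the difference within 1 pair of an IlrunKO and a WT liver, so the analysis is already paired and no further block was fitted.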

Other observations

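The neutrophil and myeloid gene S100a9, chosen after its values were seen, had ratios of -1.81, 0.82, 0.03 and 0.09 on arrays 1 to 4. Its levels were 7.46, 9.31, 8.08 and 8.24 in IlrunKO livers 1 to 4, against 9.27, 8.49, 8.04 and 8.15 in WT livers 1 to 4. S100a8, its partner in the calprotectin complex, had ratios of -1.11, 0.59, -0.06 and -0.06. For both genes IlrunKO liver 1 was the lowest and WT liver 1 the highest of its own genotype.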
